A study of Mus musculus with 18 samples.

Results

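The genes described here are 7 markers of subtype and vulnerability of midbrain dopaminergic neurons: Aldh1a1, Calb1, Kcnj6, Dlk1, Chrna6, Chrnb3 and Drd2. They were chosen by name, and all 7 have a row among the 55270 genes of the deposited table. All 7 also passed the filter on low values, which asked for 10 normalised reads or more in 6 or more libraries and left 19443 genes for testing. Poly-A RNA of the substantia nigra was sequenced from 18 mice, 6 in each of 3 groups. Intact mice are wild-type, of a strain not given in the sources used here, and no virus is named for them. AAV-GFP mice received an adeno-associated virus (AAV) for green fluorescent protein, and AAV-SIRT3 mice received an AAV for SIRT3, a deacetylase of mitochondria. The mice were 3 months old at collection, a month after the virus in the AAV groups. The promoter and serotype of the viruses and the site of injection are not given in the sources used here, and the AAV groups differ from the intact group by virus and by any surgery, whose parts cannot be told apart.

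Dopaminergic neurons of the ventral midbrain share the enzymes and transporters of dopamine but differ in the genes that mark their position. Neurons of the ventral tier of the substantia nigra, which degenerate early in Parkinson disease, express Aldh1a1, an enzyme that oxidises retinaldehyde and dopamine's aldehyde metabolite, and Kcnj6, the GIRK2 subunit of an inwardly rectifying potassium channel. Neurons of the dorsal tier and the ventral tegmental area, which are spared longer, more often express Calb1, a cytosolic calcium buffer. Chrna6 and Chrnb3 encode subunits of the nicotinic acetylcholine receptors of dopaminergic neurons, Drd2 the dopamine receptor that serves as their autoreceptor and couples through Gi/o proteins to GIRK channels, and Dlk1 a transmembrane protein related to the Delta ligands of Notch. Several of these genes are also expressed outside dopaminergic neurons: Calb1 and Kcnj6 in many other neurons, and Dlk1 and Drd2 in the anterior pituitary. In a bulk sample, fewer cells of a type and less RNA per cell cannot be told apart.

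The libraries held 47182529 to 64728587 reads assigned to genes. The labelled tissue carried its defining markers: Th, Slc6a3, Slc18a2 and Ddc, the synthesis enzymes and transporters of dopamine, summed to 18211 normalised reads or more in every library. Sirt3 was 1824 ± 66.3 normalised reads (SD, n = 6 in each group) in the intact group, 1775 ± 92.4 with AAV-GFP and 1937 ± 79.4 with AAV-SIRT3. It was 0.13 higher on the log2 scale in AAV-SIRT3 than in AAV-GFP libraries, with a limma adjusted p of 0.183. The sequence of the delivered SIRT3 is not given in the sources used here, so the Sirt3 row need not count transcripts of the virus. Intact replicates 1, 3 and 5 stood apart in Prkcd, a marker of the thalamus next to the midbrain, with 7651 to 9445 normalised reads against 18060 to 25594 in the other 3 intact libraries and 18177 to 26600 in the AAV libraries. Calls against intact that these libraries decide are given below with and without them, the latter with 3 intact libraries.

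Upstream sequence is shown for 3 members whose results are described below: Dlk1 and Kcnj6, whose levels differed from intact, and Drd2, which pairs with Kcnj6 in signalling. RefSeq's promoter table for GRCm38.p6 matched 4 of the 7 members (Aldh1a1, Kcnj6, Dlk1 and Drd2, with 6 start sites in all), and each window is the 250 bases before a start, printed 5′ to 3′ on the gene's strand. Capitals mark matches on either strand to AAGGTCA (a binding motif of NR4A2), TAATCC (of PITX3 and related homeodomain factors) or TGTTTAC (of FOXA and other forkhead factors), which do not overlap one another in these windows. The windows are Dlk1 at chr12:109452573-109452822 on the plus strand, Kcnj6 at chr16:94997697-94997946 on the minus strand and Drd2 at chr9:49340153-49340402 on the plus strand.
Dlk1: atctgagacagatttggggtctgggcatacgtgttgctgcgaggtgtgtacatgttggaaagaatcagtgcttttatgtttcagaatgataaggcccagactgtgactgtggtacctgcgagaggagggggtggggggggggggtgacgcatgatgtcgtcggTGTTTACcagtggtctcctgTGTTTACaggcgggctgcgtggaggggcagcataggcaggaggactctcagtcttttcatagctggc
Kcnj6: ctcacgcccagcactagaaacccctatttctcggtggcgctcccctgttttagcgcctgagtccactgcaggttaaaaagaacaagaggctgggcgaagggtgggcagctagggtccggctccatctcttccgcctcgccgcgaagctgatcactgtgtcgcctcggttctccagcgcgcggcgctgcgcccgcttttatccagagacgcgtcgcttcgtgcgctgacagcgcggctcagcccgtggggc
Drd2: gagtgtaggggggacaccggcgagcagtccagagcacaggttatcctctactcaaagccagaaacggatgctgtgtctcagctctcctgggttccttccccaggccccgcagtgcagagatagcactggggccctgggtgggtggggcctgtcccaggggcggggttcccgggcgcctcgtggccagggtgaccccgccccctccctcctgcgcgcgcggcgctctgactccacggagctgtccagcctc
The Dlk1 window held TGTTTAC at 2 places on its plus strand, 87 and 67 bases before the start, and none of the other 5 windows held any of the 3 motifs. Of all 32851 windows in the table, 4.08% held AAGGTCA, 6.25% held TAATCC and 3.17% held TGTTTAC. The third motif was added after the sequences had been seen. The Drd2 and Kcnj6 windows were rich in G and C, at 68.8% and 64.0%, the Dlk1 window had 54.8%, and the median over all windows was 52.4%.

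Per kilobase of exon, Aldh1a1 was the most abundant member and Kcnj6 the least. Over the 18 libraries Aldh1a1 averaged 3298 normalised reads per kb, Dlk1 1655, Calb1 1508, Drd2 625.2, Chrna6 572.0, Chrnb3 133.1 and Kcnj6 62.5. Neighbours in this order overlapped in range over the libraries for Dlk1 and Calb1, for Drd2 and Chrna6, and for Chrnb3 and Kcnj6. The steps from Aldh1a1 to Dlk1, from Calb1 to Drd2 and from Chrna6 to Chrnb3 were larger than the spread over libraries. The lowest read count behind any member's value was 252 reads, for Kcnj6, and the highest 19998, for Aldh1a1.

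**Figure D1:**
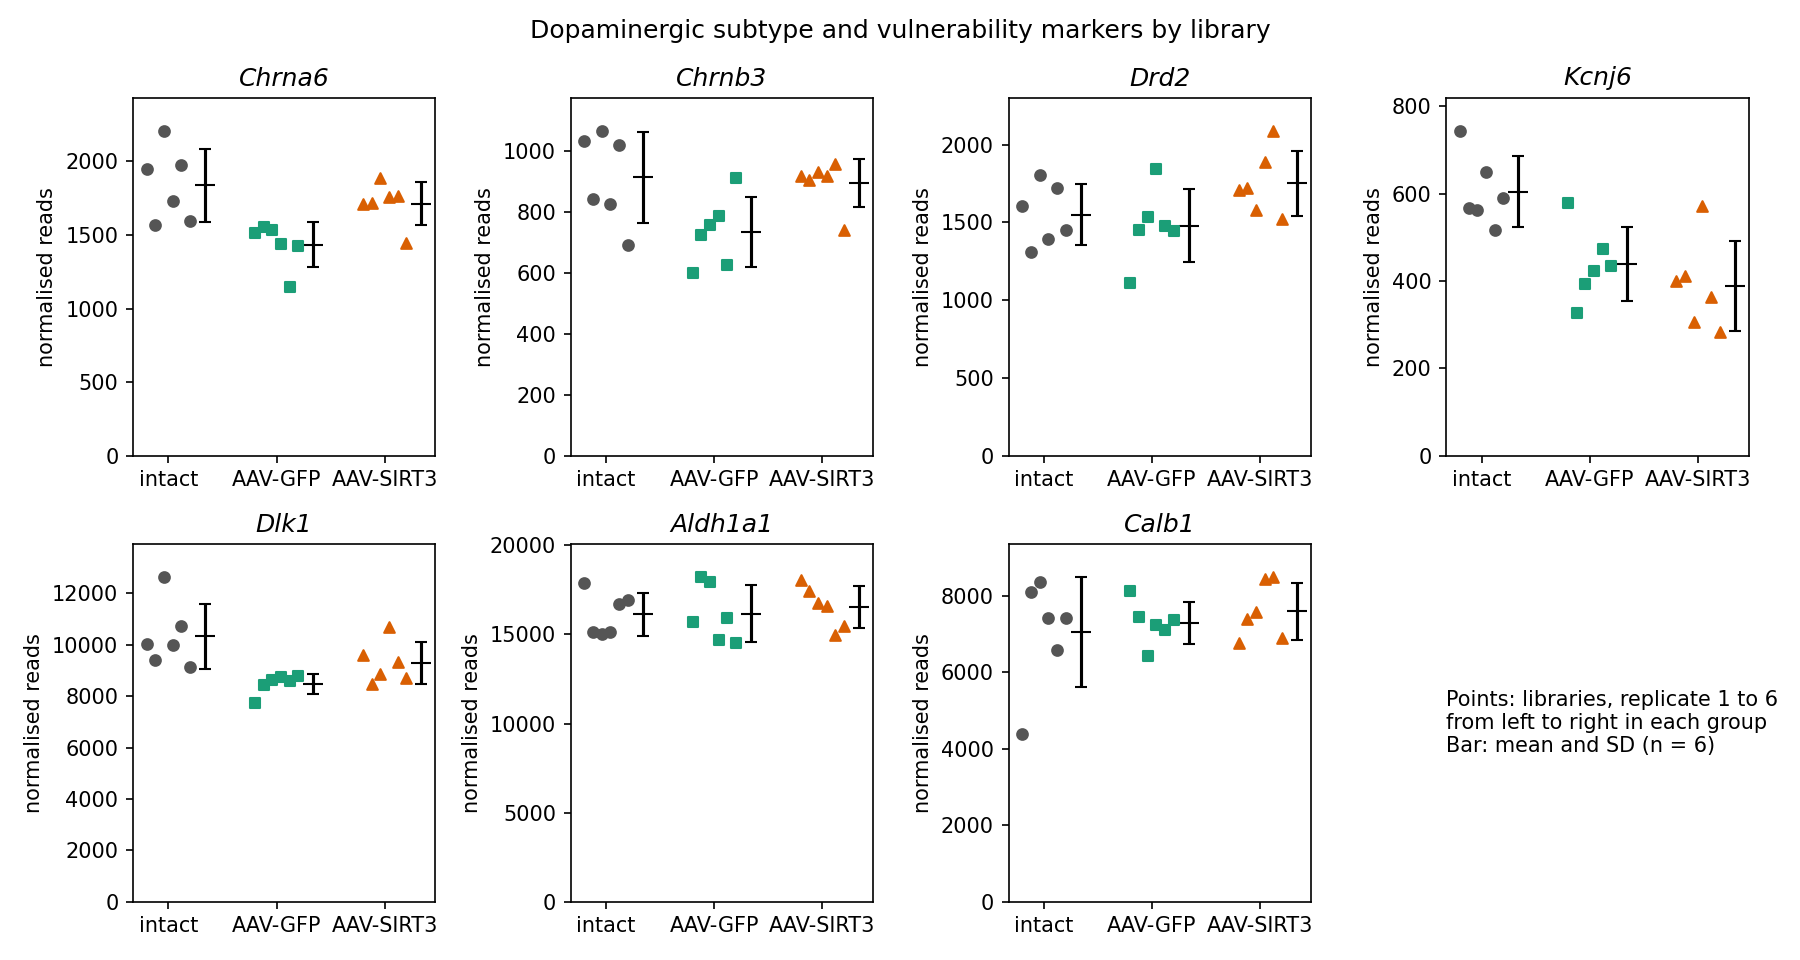
Normalised reads of each member in the 18 libraries, with intact, AAV-GFP and AAV-SIRT3 on the horizontal axis; each point is a library, and the bar is the group mean with its SD (n = 6). The AAV-GFP points of Dlk1 and Chrna6 lie below all intact points, and Kcnj6 has its lowest mean in AAV-SIRT3.

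Of the nicotinic receptor subunits, Chrna6 was lower in AAV-GFP than in intact libraries, and Chrnb3 did not differ past the threshold in any comparison. Chrna6, the alpha6 subunit (GENCODE M21 on GRCm38, chr8:27403212-27413944, minus strand), ran from 1570 to 2211 normalised reads in intact libraries with a median of 1839. In AAV-GFP it ran from 1148 to 1555 with a median of 1476, and in AAV-SIRT3 from 1444 to 1890 with a median of 1737. Every AAV-GFP library was below every intact library, and the AAV-SIRT3 range overlapped both. The fall from intact to AAV-GFP was -0.35 on the log2 scale (SE 0.0847, limma adjusted p = 0.0359). The AAV-SIRT3 libraries were 0.26 above AAV-GFP (SE 0.0847, 95% interval 0.08 to 0.43, adjusted p = 0.180), higher in 33 of 36 pairs of libraries, and differed from intact by -0.09 (95% interval -0.27 to 0.08, adjusted p = 0.454).

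The Chrna6 call rested in part on the intact libraries low in Prkcd. Chrna6 was 1946 to 2211 normalised reads in those 3 libraries and 1570 to 1731 in the other 3, and without those 3 the change from intact to AAV-GFP was -0.19 (adjusted p = 0.413). With a thalamus score as a covariate it was -0.19 (adjusted p = 0.486), and with the score of the 4 dopaminergic genes -0.09 (adjusted p = 0.585). The 8 thalamus markers, none of them at 0 in every library of a group, summed to 26086 to 67998 normalised reads in the intact group, 55023 to 65578 with AAV-GFP and 52949 to 73458 with AAV-SIRT3. The call was also lost when intact replicate 1, 3, 4 or 5, or AAV-GFP replicate 3, 4, 5 or 6, was left out alone, with changes from -0.29 to -0.37 and adjusted p from 0.0532 to 0.0953.

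Chrnb3, the beta3 subunit, is the neighbour of Chrna6 on the opposite strand (chr8:27368711-27399730, plus strand) and does not overlap it. It ran from 690.8 to 1068 normalised reads in intact libraries with a median of 932.1. In AAV-GFP the range was 598.7 to 912.4 with a median of 741.2, and in AAV-SIRT3 740.4 to 957.9 with a median of 917.9. All 3 groups overlapped, and 5 of the 6 AAV-SIRT3 libraries lay between 906.2 and 957.9. The log2 difference of AAV-GFP from intact was -0.31 (SE 0.106, limma adjusted p = 0.113), that of AAV-SIRT3 from AAV-GFP 0.29 (SE 0.106, adjusted p = 0.206), and that of AAV-SIRT3 from intact -0.02 (95% interval -0.24 to 0.20, adjusted p = 0.928). In the intact libraries low in Prkcd Chrnb3 was 1021 to 1068 normalised reads, and in the other 3 it was 690.8 to 843.0. Without the former the difference of AAV-GFP from intact was -0.11 (limma adjusted p = 0.750) and that of AAV-SIRT3 from intact turned to 0.19 (adjusted p = 0.302). The difference of AAV-GFP from intact was -0.13 with the thalamus score and -0.068 with the dopaminergic score as a covariate (adjusted p = 0.731 and 0.839), and it passed the threshold with DESeq2 (adjusted p = 0.0476) and without intact replicate 6 (-0.39, limma adjusted p = 0.0407). Of the 7 other neuronal nicotinic subunits, 0 passed the threshold with limma between AAV-GFP and intact (1 at an unadjusted p under 0.05, 0 with edgeR and 1 with DESeq2). Chrna7, the subunit of homomeric receptors, fell in AAV-SIRT3 against intact by 0.59 on the log2 scale (limma adjusted p = 0.00372). Without the 3 intact libraries low in Prkcd its difference was -0.48 (adjusted p = 0.0626). The other 6 did not pass, so 1 of 7 was called, where 21.7% of all genes were. In AAV-GFP against intact Chrna7 differed by -0.44 (limma adjusted p = 0.0756).

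Drd2, the D2 autoreceptor (chr9:49340627-49408177, plus strand), showed no difference past the threshold. It ran from 1311 to 1807 normalised reads in intact libraries with a median of 1530, from 1112 to 1846 in AAV-GFP with a median of 1463, and from 1520 to 2091 in AAV-SIRT3 with a median of 1715. The groups overlapped, and AAV-GFP had the widest range. AAV-SIRT3 libraries were higher than AAV-GFP libraries in 31 of 36 pairs, with a log2 difference of 0.25 (SE 0.0996, 95% interval 0.05 to 0.46, limma adjusted p = 0.242). Drd2 differed by -0.07 between AAV-GFP and intact (adjusted p = 0.738) and by 0.18 between AAV-SIRT3 and intact (adjusted p = 0.210). In the intact libraries low in Prkcd it was 1609 to 1807 normalised reads, and in the other intact libraries 1311 to 1451. Without the former the difference from intact turned to 0.08 for AAV-GFP (adjusted p = 0.832) and was 0.33 for AAV-SIRT3 (adjusted p = 0.0707). Among the 4 other dopamine receptor genes, 1 was called in AAV-SIRT3 against intact, where 21.7% of all genes were. Drd5 rose there by 0.48 (limma adjusted p = 0.0161), and by 0.51 without the 3 intact libraries low in Prkcd (adjusted p = 0.0725). None of the 4 passed between AAV-GFP and intact or between the AAV groups with limma, edgeR or DESeq2 (0 and 1 at an unadjusted p under 0.05).

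Kcnj6, the GIRK2 channel subunit (chr16:94748636-94997701, minus strand), had the largest difference from intact of the members. It ran from 516.8 to 744.8 normalised reads in intact libraries with a median of 578.1, from 326.4 to 578.6 in AAV-GFP with a median of 428.1, and from 283.6 to 571.5 in AAV-SIRT3 with a median of 380.7. The ranges overlapped through the highest library of each AAV group, AAV-GFP replicate 1 and AAV-SIRT3 replicate 4. Every other AAV library was below the lowest intact library. The fall from intact to AAV-SIRT3 was -0.66 on the log2 scale (SE 0.143, 95% interval -0.96 to -0.37, limma adjusted p = 0.00324), and AAV-SIRT3 was lower in 33 of 36 pairs. AAV-GFP against intact gave -0.48 (SE 0.143, adjusted p = 0.0787), and AAV-SIRT3 against AAV-GFP -0.19 (95% interval -0.49 to 0.11, adjusted p = 0.556).

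The fall of Kcnj6 in AAV-SIRT3 was as large without the 3 intact libraries low in Prkcd (-0.66, limma adjusted p = 0.0287). With the thalamus score as a covariate it was -0.61 (adjusted p = 0.0504). The difference between AAV-GFP and intact passed the threshold with DESeq2 (-0.47, adjusted p = 0.0253), without AAV-GFP replicate 1 (-0.56, limma adjusted p = 0.0341) and without AAV-SIRT3 replicate 4 (-0.48, adjusted p = 0.0444). The gene overlaps the antisense gene Gm41505 and the miRNA gene Gm22745 on the plus strand, and whether the counting used strand is not given in the sources used here. Of 6 other GIRK subunits and Gi/o proteins tested, 1 was called in AAV-SIRT3 against intact, where 21.7% of all genes were. Kcnj9, the GIRK3 subunit, was higher there by 0.31 (limma adjusted p = 0.0194), and by 0.07 without the 3 intact libraries low in Prkcd (adjusted p = 0.464). Kcnj3 (GIRK1), Kcnj5 (GIRK4), Gnai1, Gnai2 and Gnao1 gave differences of 0.01 to 0.12 in that comparison that did not pass the threshold. Kcnj9 was also 0.31 higher in AAV-GFP than in intact libraries (limma adjusted p = 0.0790). In AAV-GFP against intact limma and edgeR called 0 of the 6 and DESeq2 called 1.

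Dlk1 (chr12:109452823-109463336, plus strand) was lower in AAV-GFP than in intact libraries. It ran from 9149 to 12639 normalised reads in intact libraries with a median of 10017, from 7734 to 8780 in AAV-GFP with a median of 8597, and from 8484 to 10702 in AAV-SIRT3 with a median of 9104. The AAV-GFP and intact libraries did not overlap, and AAV-SIRT3 libraries spanned the gap. The fall from intact to AAV-GFP was -0.28 on the log2 scale (SE 0.0649, limma adjusted p = 0.0332). AAV-SIRT3 was 0.13 above AAV-GFP (95% interval -0.01 to 0.26, adjusted p = 0.346) and 0.15 below intact (log2 difference -0.15, adjusted p = 0.107). The latter difference passed the threshold without AAV-SIRT3 replicate 4 (-0.19, adjusted p = 0.0346), and was -0.039 without the 3 intact libraries low in Prkcd (adjusted p = 0.734) and -0.013 with the thalamus score as a covariate (adjusted p = 0.934).

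In the intact libraries low in Prkcd, Dlk1 was 10028 to 12639 normalised reads, and in the other 3 it was 9149 to 10005. Without the former the change from intact to AAV-GFP was -0.17 (limma adjusted p = 0.320), with the thalamus score as a covariate -0.14 (adjusted p = 0.469), and with the dopaminergic score -0.17 (adjusted p = 0.356). Leaving out intact replicate 3, 4 or 5, or AAV-GFP replicate 2, 3 or 5, also ended the call, with changes from -0.22 to -0.28 and adjusted p from 0.0563 to 0.0712. Anterior pituitary hormone genes were higher in intact libraries too: the 8 pituitary markers summed to 739.9 to 5430 normalised reads in intact, 251.1 to 698.1 in AAV-GFP and 240.0 to 810.1 in AAV-SIRT3, none was at 0 in every library of a group, and Prl, Gh, Cga and Pomc fell in both AAV groups among the 6 tested. Without the 3 intact libraries low in Prkcd 0 of the 6 were called in AAV-GFP and 2, Pomc and Cga, in AAV-SIRT3. The differences stayed large in that fit, which called 10 genes in all in AAV-GFP against intact. Prl, Gh, Pomc and Cga were -4.51, -3.75, -3.20 and -3.14 in AAV-GFP (limma adjusted p from 0.147 to 0.267). In AAV-SIRT3 they were -2.80, -2.68, -3.16 and -3.71. The part of the pituitary markers in the Dlk1 result was not tested.

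Aldh1a1 (chr19:20492715-20643465, plus strand) was nearly level across the groups. It ran from 15004 to 17862 normalised reads in intact libraries with a median of 15946, from 14503 to 18235 in AAV-GFP with a median of 15807, and from 14960 to 18064 in AAV-SIRT3 with a median of 16674. The 3 ranges covered one another almost wholly. The difference of AAV-SIRT3 from AAV-GFP was 0.04 (95% interval -0.09 to 0.16, limma adjusted p = 0.821), that of AAV-SIRT3 from intact 0.04 (95% interval -0.09 to 0.16), and that of AAV-GFP from intact had a 95% interval of -0.13 to 0.13. On the other strand the gene overlaps C730002L08Rik and the pseudogene Gm6684, and Aldh1a7 is a close paralogue; how reads shared between copies were counted is not given in the sources used here, so the level is uncertain to that extent. Of 15 other genes of retinoic acid synthesis and signalling, 1 passed in AAV-SIRT3 against intact, where 21.7% of all genes did. This count is not above the background. The gene was Rxrb, a retinoid X receptor, which rose by 0.22 (limma adjusted p = 0.00177). In the comparisons of AAV-GFP with intact and of the AAV groups 0 passed with limma or edgeR (each 1 at an unadjusted p under 0.05, 0 and 1 with DESeq2).

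Calb1 (chr4:15881264-15908064, plus strand) did not differ past the threshold either. It ran from 4391 to 8372 normalised reads in intact libraries with a median of 7426, from 6416 to 8127 in AAV-GFP with a median of 7302, and from 6773 to 8499 in AAV-SIRT3 with a median of 7487. Intact replicate 1 held the lowest value, and the other intact libraries lay between 6581 and 8372. The log2 difference was 0.06 between AAV-SIRT3 and AAV-GFP (95% interval -0.17 to 0.29), 0.07 between AAV-GFP and intact (-0.15 to 0.30) and 0.13 between AAV-SIRT3 and intact (-0.09 to 0.36). Without intact replicate 1 the difference between AAV-GFP and intact turned to -0.06. The 2 other calcium-binding protein genes looked at both rose in AAV-SIRT3 against intact, where 21.7% of all genes were called. Pvalb rose by 0.43 (limma adjusted p = 0.000837) and Calb2 by 0.17 (adjusted p = 0.0360). Between AAV-SIRT3 and AAV-GFP they differed by 0.33 and 0.16 (limma adjusted p = 0.0708 and 0.212), and DESeq2 called 1 of the 2.

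Counted together, few members passed the threshold in any comparison. Between AAV-GFP and intact libraries 2 of 7 were called, both lower, where 1.84% of all tested genes were called and 1.02% were called lower. The same 2 members did not overlap between these groups, against 1.86% of all genes and 0.988% on the lower side. DESeq2 called 4 of 7, all lower (Chrnb3 and Kcnj6 in addition), and 5.18% of all genes. The limma count was 0 of 7 without the 3 intact libraries low in Prkcd and with either score as a covariate, and it was also 0 when intact replicate 3, 4 or 5 or AAV-GFP replicate 3 or 5 was left out alone. Between AAV-SIRT3 and intact 1 of 7 was called, a lower one, where 21.7% of all genes were called and 10.3% were called lower, so this count is not above the background. Between AAV-SIRT3 and AAV-GFP 0 of 7 were called with limma, edgeR or DESeq2, where the tools called 0.113%, 0.129% and 1.59% of all genes. In that comparison 3 of 7 (Chrna6, Chrnb3 and Drd2) had an unadjusted p under 0.05, against 15.2% of all genes. In AAV-GFP against intact 4 of 7 did, against 3707 of 19443 genes, and in AAV-SIRT3 against intact 2 of 7, against 6788. The median log2 difference of the 7 was -0.28 for AAV-GFP against intact, 0.13 for AAV-SIRT3 against AAV-GFP and -0.02 for AAV-SIRT3 against intact. The medians over all tested genes were 0.00074, -0.0041 and -0.0049. The 3 comparisons share groups, so a high or low group enters 2 of them.

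**Figure D2:**
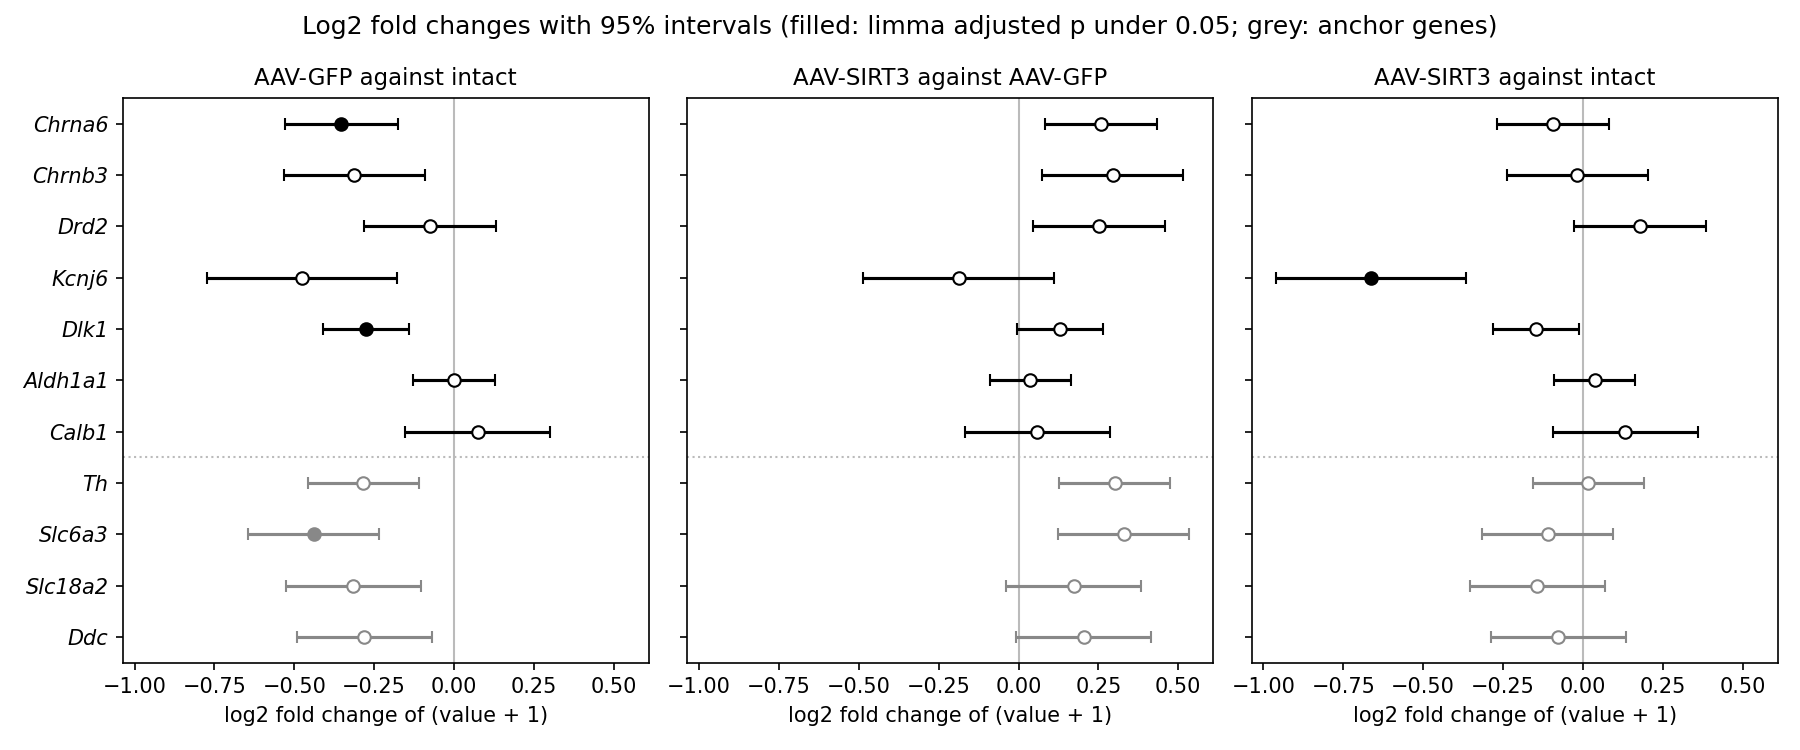
Log2 difference of each member with its 95% interval in the 3 comparisons (horizontal axis), from the limma model of 18 libraries. The intervals of Kcnj6, Dlk1, Chrna6 and Chrnb3 lie below 0 for AAV-GFP against intact, and those of Chrna6, Chrnb3 and Drd2 above 0 for AAV-SIRT3 against AAV-GFP.

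The members were then set against the dopaminergic genes of the same library, because the latter varied too. Slc6a3, the dopamine transporter, was 11062 ± 1456 normalised reads (SD, n = 6 in each group) in the intact group, 8168 ± 1086 with AAV-GFP and 10251 ± 1245 with AAV-SIRT3. It fell from intact to AAV-GFP by 0.44 on the log2 scale (limma adjusted p = 0.0263). Slc6a3 was 12027 to 12867 normalised reads in the 3 intact libraries low in Prkcd and 9283 to 10178 in the other 3, and without the former its difference was -0.27 (adjusted p = 0.352). Th, Slc18a2 and Ddc differed by -0.28, -0.31 and -0.28 in that comparison, with adjusted p of 0.0755, 0.0970 and 0.133, and by -0.13, -0.07 and -0.05 without those 3 libraries. From AAV-GFP to AAV-SIRT3 the 4 genes differed by 0.17 to 0.33 with limma adjusted p of 0.122 or more. In that comparison edgeR called 0 of the 4 and DESeq2 called 2, where DESeq2 called 1.59% of all genes.

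Chrna6 varied little relative to these genes. As a percentage of the geometric mean of Th, Slc6a3, Slc18a2 and Ddc, it was 25.8 ± 1.78% (SD, n = 6 in each group) in the intact group, 25.4 ± 1.30% with AAV-GFP and 25.5 ± 1.26% with AAV-SIRT3, and every library lay between 23.1% and 27.7%. Its log2 differences on this scale were 0.0064 between the AAV groups, -0.02 between AAV-GFP and intact and -0.02 between AAV-SIRT3 and intact (SE 0.104 each), with limma adjusted p of 0.862 or more. Chrnb3 was 12.8 ± 1.37%, 13.1 ± 2.1% and 13.3 ± 0.589%, and Dlk1 146.0 ± 16.7%, 151.8 ± 22.8% and 138.5 ± 9.64%, in the same order of groups. Drd2 was 21.8 ± 1.38% in the intact group, 26.4 ± 5.38% with AAV-GFP and 26.1 ± 2.63% with AAV-SIRT3, 0.26 above intact in each AAV group on the log2 scale (adjusted p = 0.0726 and 0.280). The medians over all tested genes on this scale were 0.33 for AAV-GFP and 0.07 for AAV-SIRT3 against intact. The Drd2 difference from intact passed the threshold for AAV-GFP without intact replicate 2, AAV-GFP replicate 1 or AAV-GFP replicate 2 (0.27 to 0.33, limma adjusted p from 0.0377 to 0.0475). It also passed against Th and Slc6a3 alone (0.29, adjusted p = 0.0334). In these fits, in that order, 12018, 7215, 11212 and 11173 of 19443 genes were called. The medians over all genes were 0.39, 0.33, 0.37 and 0.36, so these Drd2 values are not above the background. Without the 3 intact libraries low in Prkcd the Drd2 difference was 0.21 (adjusted p = 0.559).

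Kcnj6 was 8.61 ± 1.53% of the dopaminergic genes (SD, n = 6 in each group) in the intact group, 7.94 ± 2.27% with AAV-GFP and 5.77 ± 1.35% with AAV-SIRT3. Its log2 difference on this scale was -0.44 between AAV-SIRT3 and AAV-GFP (SE 0.165, limma adjusted p = 0.0789) and -0.59 between AAV-SIRT3 and intact (SE 0.165, adjusted p = 0.0661). The medians over all tested genes were -0.26 and 0.07. Without AAV-GFP replicate 2 the Kcnj6 difference between the AAV groups was -0.56 (adjusted p = 0.0172). In that fit 5417 of 19443 genes were called between the AAV groups, with a median of -0.30. The Kcnj6 difference of AAV-SIRT3 from intact passed the threshold without AAV-GFP replicate 2 or 5, where the difference itself is the same and the pooled spread differs (-0.59, adjusted p = 0.0388 and 0.0405), and without AAV-SIRT3 replicate 4 (-0.69, adjusted p = 0.0265). Without the 3 intact libraries low in Prkcd the Kcnj6 differences from AAV-GFP and from intact were -0.44 (adjusted p = 0.0349) and -0.79 (adjusted p = 0.0283). Over all genes the medians were then -0.26 and -0.13, with 5710 and 253 genes called.

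Aldh1a1 and Calb1 rose relative to the dopaminergic genes from intact to AAV-GFP, by 0.33 (limma adjusted p = 0.0164) and 0.40 (adjusted p = 0.0255). On this scale 47.5% of all tested genes were called higher and the median over all genes was 0.33, so the count of 2 of 7 is not above the background. Both calls were lost without the 3 intact libraries low in Prkcd, with 0.16 for Aldh1a1 (adjusted p = 0.569) and 0.06 for Calb1 (adjusted p = 0.849). Without intact replicate 3 the value for Aldh1a1 was 0.27 (adjusted p = 0.0602). For Calb1 it was 0.22 to 0.36 without intact replicate 1 or 5 or AAV-GFP replicate 1 or 5 (adjusted p from 0.0571 to 0.141). Between AAV-SIRT3 and AAV-GFP 0 of 7 members were called on this scale, where 2.58% of all genes were called, with limma, the 1 tool run on it. In that comparison 1 of 7 had an unadjusted p under 0.05, against 7337 of 19443 genes. Between AAV-SIRT3 and intact 0 of 7 were called as well, against 0.823% of all genes. There 2 of 7 had an unadjusted p under 0.05, against 3169 of 19443 genes.

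**Figure D3:**
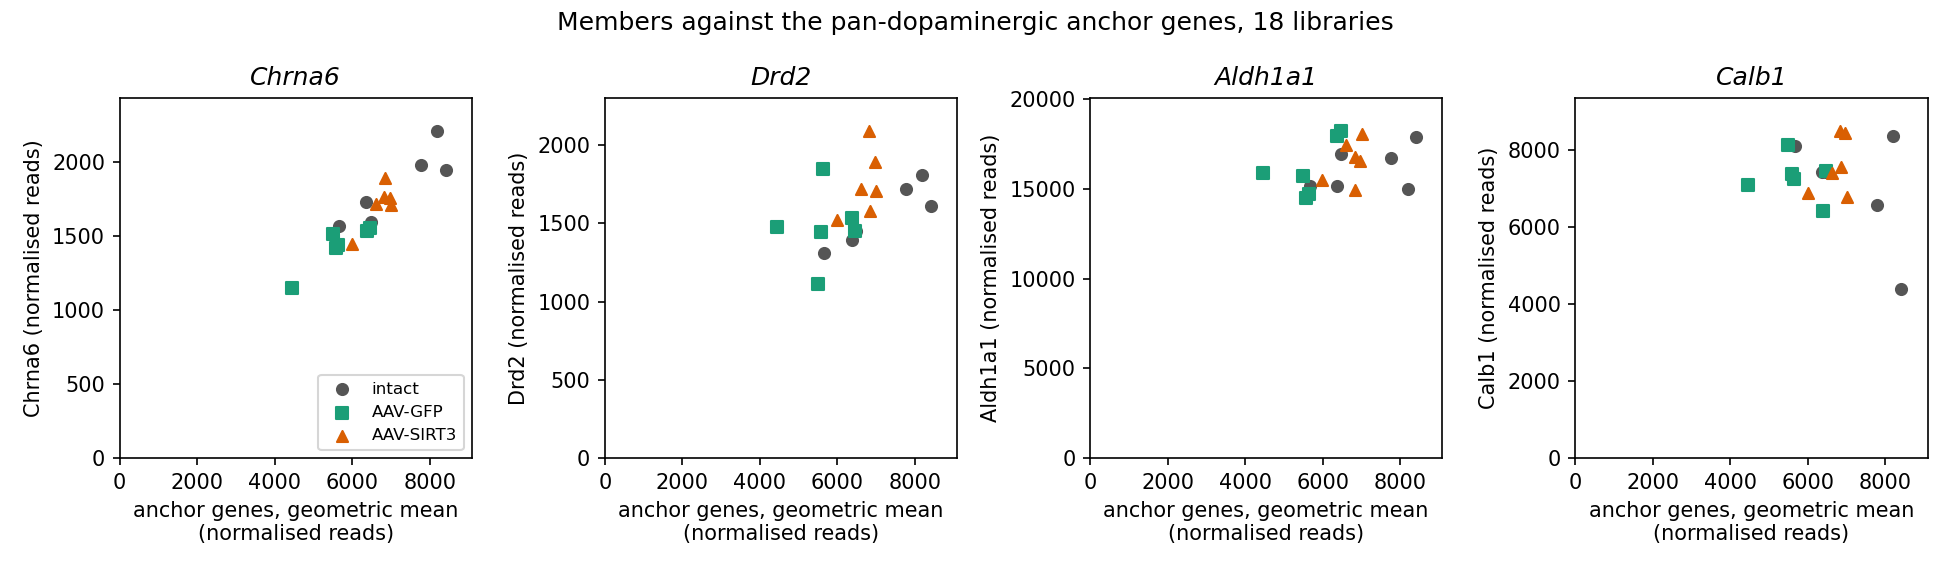
Normalised reads of Chrna6, Drd2, Aldh1a1 and Calb1 (vertical axes) against the geometric mean of Th, Slc6a3, Slc18a2 and Ddc (horizontal axes) in the 18 libraries, on linear axes and coloured by group. Chrna6 follows the dopaminergic genes over all libraries, while Calb1 scatters across them.

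Within the groups, Chrna6 was also the member that varied most closely with the dopaminergic genes. Over the deviations of the 18 libraries from their group means on the log2 scale, its Pearson r with the mean of the 4 genes was 0.89, against 0.65 for Chrnb3, 0.48 for Drd2, 0.47 for Dlk1, 0.46 for Aldh1a1, -0.04 for Kcnj6 and -0.35 for Calb1. Among the members, Chrna6 and Chrnb3 had r = 0.67, Dlk1 and Drd2 0.67, Chrnb3 and Drd2 0.64, Dlk1 and Chrnb3 0.62, and Aldh1a1 and Calb1 -0.55. Kcnj6 had an r between -0.05 and 0.14 with each other member. These correlations describe libraries that share their dissection and their size factor.

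**Figure D4:**
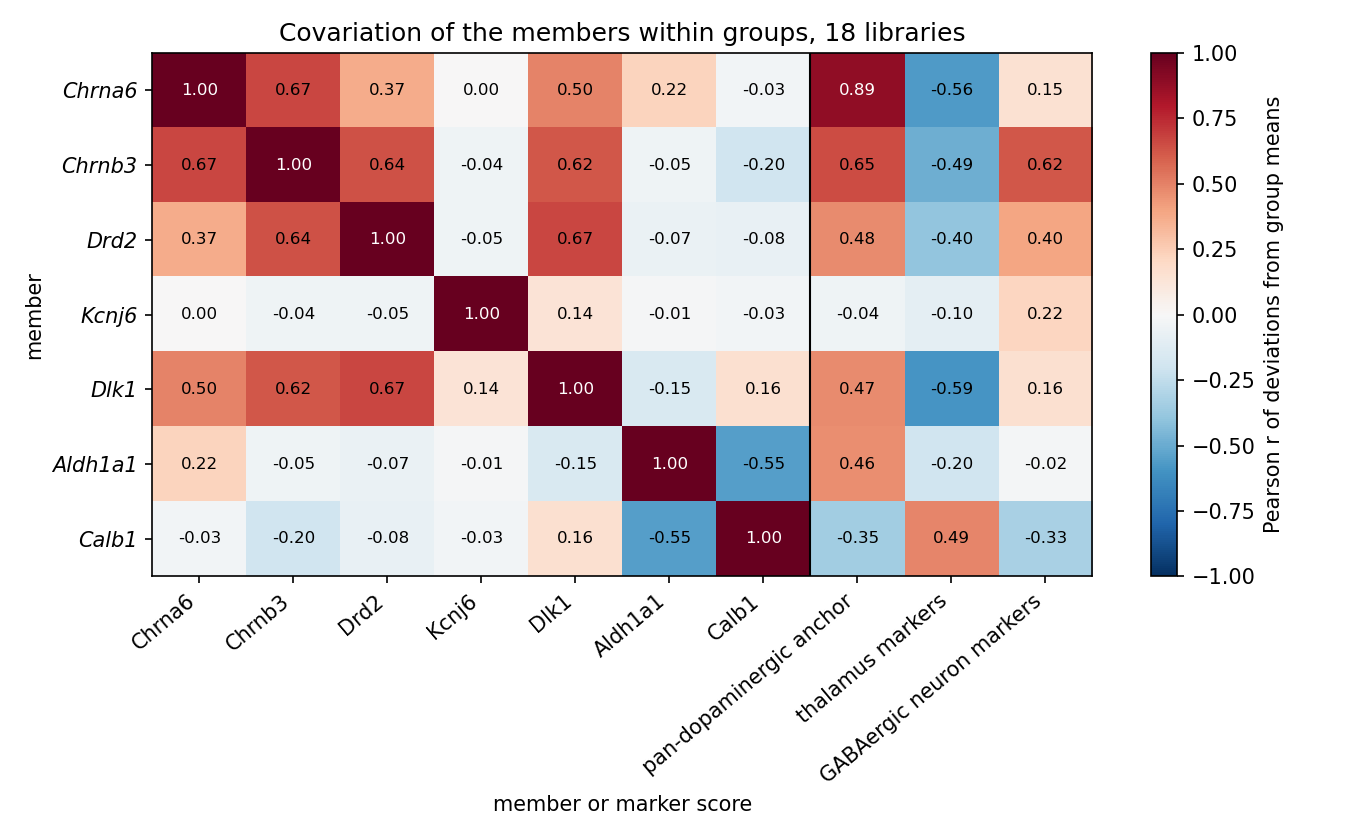
Pearson r of the deviations from group means over the 18 libraries, for each pair of members and for each member with 3 scores, the dopaminergic genes, the thalamus markers and the GABAergic markers; colour gives r from -1 to 1. Chrna6, Chrnb3, Dlk1 and Drd2 have positive r with one another, and Kcnj6 has r near 0 with the other members.

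By the same measure, the tested genes most like each member were looked up among those with a mean of at least 50 normalised reads. The gene closest to Chrna6 was Slc6a3 (r = 0.95), followed by Gucy2c (0.87) and Rbm34 (0.81). For Chrnb3 they were Caskin1 (0.81), Syt17 (0.80) and Ret (0.79), and for Drd2 Cacng3 (0.84), Satb1 (0.82) and Pmepa1 (0.81). For Kcnj6 they were Soga1 (0.92), Dop1a (0.91) and Chd2 (0.91), and for Dlk1 Mboat7 (0.89), Gpr85 (0.87) and Nkx2-2 (0.86). For Aldh1a1 they were Edn1, Dmp1 and Mmrn2 (each 0.85), and for Calb1 Pdyn (0.92), C130093G08Rik (0.92) and Cbln1 (0.91). Each is the highest of 15245 genes over 18 libraries, so high values of r arise by selection.

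Further markers of the 2 populations were called in the comparisons with intact. Of 8 ventral tier and 10 dorsal tier and ventral tegmental genes, 1 and 2 were called in AAV-GFP against intact, where 1.84% of all genes were, and 3 and 4 in AAV-SIRT3 against intact, where 21.7% were. Without the 3 intact libraries low in Prkcd these counts were 0 and 0, and 0 and 2. Between the AAV groups limma and edgeR called 0 and 0 (1 and 2 at an unadjusted p under 0.05 with limma) and DESeq2 0 and 1. Among the ventral tier genes, Ndnf, a secreted neurotrophic protein, was lower in both AAV groups than in intact, by -0.41 in AAV-GFP (limma adjusted p = 0.0171) and -0.33 in AAV-SIRT3 (adjusted p = 0.00863). Sox6, a transcription factor of ventral tier neurons, and Vcan, a matrix proteoglycan, each differed by -0.22 in AAV-SIRT3 against intact (adjusted p = 0.0246 and 0.00667). Among the dorsal tier and ventral tegmental genes, the neuropeptide gene Cck was higher by 0.70 in AAV-GFP (adjusted p = 0.0214) and by 0.75 in AAV-SIRT3 (adjusted p = 0.00209). Lpl, lipoprotein lipase, was 0.52 higher in AAV-GFP (adjusted p = 0.0228). In AAV-SIRT3 against intact, Grp (0.32, adjusted p = 0.0335) and Calb2 were higher, and Adcyap1, the gene for the peptide PACAP, was lower (-0.22, adjusted p = 0.0105). The median log2 difference from intact was -0.08 in AAV-GFP and -0.17 in AAV-SIRT3 for the ventral tier genes, and 0.13 in each for the dorsal genes. Without the 3 intact libraries low in Prkcd these medians were 0.03 and -0.14, and 0.07 and 0.11. Ndnf was then -0.29 in AAV-GFP and -0.21 in AAV-SIRT3 (limma adjusted p = 0.280 and 0.158). Sox6 and Vcan were -0.24 and -0.21 in AAV-SIRT3 (adjusted p = 0.0726 and 0.0721). Without those libraries Cck was 0.31 higher in AAV-GFP (adjusted p = 0.275) and 0.36 higher in AAV-SIRT3 (adjusted p = 0.0315), and Calb2 was the other gene called. Vcan and Cck are expressed in many cells outside the dopaminergic population. Of the 8 thalamus markers, 7 were called higher in AAV-SIRT3 and 1 in AAV-GFP against intact, and 0 in each without those libraries. Their median difference from intact was similar in the AAV groups, 0.67 in AAV-SIRT3 and 0.70 in AAV-GFP, and 0.17 and 0.14 without those libraries. The part of such cells and of these markers in these results was not tested.

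Of 13 genes of the Notch pathway, which DLK1 is related to by structure, 7 passed the threshold in AAV-SIRT3 against intact, where 21.7% of all genes did. The ligand gene Jag1 (-0.42, limma adjusted p = 0.00684), the receptor gene Notch1 (-0.40, adjusted p = 0.00195) and Notch2 (-0.29, adjusted p = 0.00942), together with Dll1 and Notch3, were lower, while the target gene Hes5 was higher (0.43, adjusted p = 0.0446), as was Hes1. Of the 13, 3 were called without the 3 intact libraries low in Prkcd, Notch1, Notch2 and Hes1. None of the 13 passed in the comparison of AAV-GFP with intact or of the AAV groups (1 and 7 at an unadjusted p under 0.05, 0 with edgeR and DESeq2). Of all 19443 tested genes, 3707 and 2964 had an unadjusted p under 0.05 in these comparisons. Of 8 transcription factors of dopaminergic neurons, 0 passed in any comparison with limma, edgeR or DESeq2, and 3, 2 and 0 had an unadjusted p under 0.05 in AAV-GFP against intact, AAV-SIRT3 against AAV-GFP and AAV-SIRT3 against intact. Over all tested genes, 3707, 2964 and 6788 of 19443 did.

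Microglia markers were called against intact in both AAV groups, and reactive astrocyte markers mainly in AAV-GFP. Of 6 reactive astrocyte markers, Serpina3n (0.89, limma adjusted p = 0.00297) and Gfap (0.50, adjusted p = 0.0388) rose from intact to AAV-GFP, and Serpina3n was lower in AAV-SIRT3 than in AAV-GFP (-0.88, adjusted p = 0.00991). In AAV-SIRT3 against intact Serpina3n differed by 0.0014 and Gfap by -0.05 (adjusted p = 0.996 and 0.822). The 6 astrocyte markers summed to 17913 to 26354 normalised reads in the intact group, 23723 to 43108 with AAV-GFP and 18598 to 26517 with AAV-SIRT3, and none was at 0 in every library of a group. Aif1, a microglial gene, was higher in both AAV groups than in intact, by 0.47 (adjusted p = 0.0283) and 0.49 (adjusted p = 0.00327). In AAV-SIRT3 against intact 3 of 6 microglia markers were called, Aif1, Tmem119 (0.38, adjusted p = 0.00181) and Itgam (0.25, adjusted p = 0.0357), where 21.7% of all genes were. In AAV-GFP against intact 1 of 6 was called, where 1.84% of all genes were, and Itgam was 0.32 higher (adjusted p = 0.0537). The uncalled microglia markers differed from intact by 0.01 to 0.05 in AAV-SIRT3 and by -0.04 to 0.32 in AAV-GFP. The acute-phase gene Lcn2 was also higher in AAV-SIRT3 than in intact (2.89, adjusted p = 0.0474) and had an adjusted p of 0.0502 in AAV-GFP against intact (3.91). Without the 3 intact libraries low in Prkcd, Serpina3n in AAV-GFP and the 3 microglia genes in AAV-SIRT3 were called, and Gfap (0.63, adjusted p = 0.123) and Aif1 (0.45, adjusted p = 0.260) in AAV-GFP and Lcn2 in AAV-SIRT3 (2.22, adjusted p = 0.278) were not. The part of these markers in the members' levels was not tested.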

How the data were processed

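Poly-A RNA of 18 substantia nigra samples was sequenced in pairs of 100 bp from stranded libraries, per the labels' protocols, and groups and replicate numbers came from the sample titles. The deposited signal is, per the name of the table, an HTSeq read count per gene normalised by DESeq2, and the submitters' processing notes name HISAT2 2.1.0, DESeq2 1.34.0 and mm10. The annotation and strand setting are not given in the sources used here. Dividing out a size factor per library (0.877 to 1.17) gave whole reads, within 0.001, for 100% of the deposited values; replicate 4 of the intact and of the AAV-SIRT3 group has a factor close to 1, where whole values prove less. On these read counts edgeR called 25, 352 and 4155 genes in AAV-SIRT3 against AAV-GFP, AAV-GFP against intact and AAV-SIRT3 against intact. There were 0 columns of per-sample values without a sample.

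The members and lists were chosen with earlier results of these data known. In R 4.3.3, limma 3.58.1 fitted log2(value + 1) of the 18 libraries in 1 model of 3 groups, with a trend in the variance and Benjamini-Hochberg adjustment over 19443 genes at 0.05; this scale makes the fold changes of low genes too small. Depth was 47182529 to 64728587 reads in genes, and counting error is the only error that depth covers. Replicates differed by more than sampling noise (chi-square per degree of freedom 8.27 to 36.6). A further fit used log2 values minus the mean log2 value of Th, Slc6a3, Slc18a2 and Ddc. Scores used as covariates are mean log2 values of a marker list. Positions and exon lengths are from GENCODE M21. Named genes were the members, Sirt3, the 4 dopaminergic genes, at most 4 called genes per list and comparison by size of fold change, the 3 genes most like each member, and Prkcd, Prl, Gfap and Aif1. Dll1, Notch3, Hes1, Aldh1a7 and the uncalled GIRK and Gi/o genes are named outside that rule, to complete counts. Alternatives were TMM factors, pseudocounts of 0.5 and 10, other filters, edgeR 4.0.16, DESeq2 1.42.0, fits of 2 groups, a replicate block, covariates, removal of a length trend, another anchor and leaving out each library; leaving out the 3 intact libraries low in Prkcd was added after seeing the data. The fits were tested on simulated data.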

Additional observations from a re-analysis of the deposited data

Results flagged for a closer look

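Of 54 groups of 6 values checked for a library far from the others, 7 were flagged, where chance flags about 1 in 20 (2.7 of 54). Chrna6 in AAV-GFP replicate 5 was 1148 normalised reads, below the next library at 1422, and Slc6a3 in the same library was 6087, below the next at 8113. In that library Aldh1a1 was 357.3% of the geometric mean of the 4 dopaminergic genes, above the next at 286.0%. AAV-SIRT3 replicate 6 had the lowest Chrnb3, 740.4 normalised reads with the next library at 906.2, and the lowest Slc6a3, 7743 with the next at 10540. Dlk1 in AAV-GFP replicate 1 was 7734 normalised reads, below the next at 8423. Drd2 in intact replicate 1 was 19.1% of the dopaminergic genes, below the next at 21.9%.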

How the results depend on the processing

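Of 21 differences of a member in a comparison, 15 stayed on their side of the threshold under all 31 alternatives, 18 of which leave out 1 library. The other 6 are Kcnj6, Dlk1, Chrna6 and Chrnb3 in AAV-GFP against intact, and Kcnj6 and Dlk1 in AAV-SIRT3 against intact, whose values stand in the report. In AAV-GFP against intact, 2 members were called in the fit as reported, 4 with DESeq2, 1 in a fit of the 2 groups, and 0 with all genes above 0, with the thalamus score, with the dopaminergic score or without the 3 intact libraries low in Prkcd, and 0 to 3 when 1 library was left out. In AAV-SIRT3 against intact the count of 1 became 0 with the thalamus score and was 1 to 2 with 1 library left out. Between the AAV groups it was 0 under each alternative.

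Over all genes, AAV-SIRT3 against AAV-GFP gave 22 calls, 310 with DESeq2, 8 in a fit of the 2 groups, 3 with the dopaminergic score and 5 to 861 with 1 library left out. AAV-GFP against intact gave 358 calls, 164 with all genes above 0, 1008 with DESeq2, 199 in a fit of the 2 groups, 17 with the thalamus score, 5 with the dopaminergic score, 10 without the 3 intact libraries low in Prkcd and 129 to 686 with 1 library left out. AAV-SIRT3 against intact gave 4214 calls, 1336 with the thalamus score, 1686 without the 3 intact libraries and 3279 to 4633 with 1 library left out. The cause of these shifts was not tested, except that the filter and the smaller fits change the number of genes or libraries by construction.

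Same-numbered replicates had correlations of deviations from -0.095 to 0.175, and 1 of 18 libraries correlated best with its own number, so the numbers were not taken as pairs. With the replicate block, AAV-SIRT3 against AAV-GFP had 13 calls over all genes, and Kcnj6 relative to the dopaminergic genes was called in AAV-SIRT3 against intact, 1 member in place of 0. On that relative scale 319 of 19443 genes were called in AAV-SIRT3 against intact with the block.

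Some values changed sign, all short of the threshold. With the thalamus score, Calb1 was -0.12 and Drd2 0.066 in AAV-GFP against intact, and Calb1 -0.067, Chrna6 0.075 and Chrnb3 0.17 in AAV-SIRT3 against intact. With the dopaminergic score, Aldh1a1 was -0.039 between the AAV groups, Calb1 -0.068 and Drd2 0.097 in AAV-GFP against intact, and Chrnb3 0.041 in AAV-SIRT3 against intact. Without the 3 intact libraries, Calb1 was -0.074 and Drd2 0.079 in AAV-GFP against intact, and Calb1 -0.015, Chrna6 0.068 and Chrnb3 0.19 in AAV-SIRT3 against intact. With a length trend removed, Aldh1a1 was -0.0037 in AAV-GFP against intact and Chrnb3 0.0036 in AAV-SIRT3 against intact. With 1 library left out, Aldh1a1 ran from -0.036 to 0.030, Calb1 from -0.056 to 0.13 and Drd2 from -0.14 to 0.0048 in AAV-GFP against intact, and Chrnb3 from -0.094 to 0.037 in AAV-SIRT3 against intact.

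Relative to the dopaminergic genes, an anchor of Th and Slc6a3 alone called 2 members between the AAV groups, Aldh1a1 (-0.28) and Kcnj6 (-0.50), 3 in AAV-GFP against intact, Drd2 (0.29) in addition to Aldh1a1 and Calb1, and 1 in AAV-SIRT3 against intact, Kcnj6 (-0.62). With this anchor 8765, 11173 and 208 of 19443 genes were called in these comparisons. The medians over all genes were -0.32, 0.36 and 0.04, and the counts of 2 and 3 members are not above the background. This anchor turned Chrna6, Chrnb3 and Drd2 to -0.057, -0.020 and -0.062 between the AAV groups and Chrna6 to 0.0088 in AAV-GFP against intact. Without the 3 intact libraries low in Prkcd, 1, 0 and 1 members were called in AAV-SIRT3 against AAV-GFP, AAV-GFP against intact and AAV-SIRT3 against intact, and Dlk1 turned to -0.038 in the second, Aldh1a1 to -0.051 and Calb1 to -0.14 in the third. Over all genes 5710, 21 and 253 of 19443 were called in that fit. With 1 library left out the counts of members were 0 to 1, 1 to 3 and 0 to 1. Between the AAV groups the 1 came without AAV-GFP replicate 2, where 5417 of 19443 genes were called. In AAV-GFP against intact the 3 came without intact replicate 2 or AAV-GFP replicate 2, where 12018 and 11212 were called. In AAV-SIRT3 against intact the 1 came without AAV-GFP replicate 2 or 5 or AAV-SIRT3 replicate 4, where 290, 449 and 185 were called. The values that changed sign with 1 library left out were Chrna6 (-0.017 to 0.030), Chrnb3 (-0.0057 to 0.11) and Drd2 (-0.071 to 0.071) between the AAV groups, Dlk1 (-0.019 to 0.094) and Chrnb3 (-0.050 to 0.067) in AAV-GFP against intact, and Chrna6 (-0.048 to 0.0043) in AAV-SIRT3 against intact.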
